A study of Mus musculus with 44 samples.

Results

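Matrix metalloproteinases are zinc-dependent proteases that cut extracellular matrix and cell-surface proteins, and tissue inhibitors of metalloproteinases (TIMPs) block their active sites. Macrophages secrete several of them, and their expression is known to change with inflammatory stimuli. The 10 genes described here are 8 proteases (Mmp8, Mmp9, Mmp10, Mmp12, Mmp13, Mmp14, Mmp19 and Mmp27) and 2 inhibitors (Timp1 and Timp2). They were taken by gene symbol from the 24940 genes listed in each of 4 RNA-seq count tables, which also list 17 other Mmp and Timp genes. The list was chosen by symbol, with no threshold, while the fold changes of these libraries between NCoR knockout and wild-type cells were known, where Mmp9 and Mmp10 are among the largest. Those differences are therefore given as a description with no p-value.

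The 44 libraries came from bone marrow-derived macrophages (BMDMs) of C57BL/6 mice aged 8 to 12 weeks and form 22 groups of 2 replicates. The column headers name the RANKL libraries osteoclasts, while the paper's methods describe RANKL treatment of BMDMs. In the NCoR table, WT cells carried the floxed Ncor allele (NCoR flox/flox) without Cre, and NKO cells carried the same allele with LysM-Cre, a Cre driven by the lysozyme 2 promoter of myeloid cells, which deletes NCoR, the corepressor that carries the deacetylase HDAC3. Both genotypes received vehicle (Veh), KLA (Kdo2 lipid A, which stimulates the lipopolysaccharide receptor TLR4), poly I:C (PolyIC, which stimulates TLR3), IFNβ (IFNb) or IL4 for 6 h, or RANKL, the osteoclast-forming cytokine, for 12 h. The RGFP966 table held wild-type cells with vehicle, KLA, or KLA with the HDAC3 inhibitor RGFP966. The Pgc1b table held Pgc1b flox/flox cells without Cre (Pgc1b_flox) and with LysM-Cre (Pgc1b_flox_Cre), each with vehicle or KLA. The TBK1i table held wild-type cells with DMSO, DMSO and KLA, or KLA and an inhibitor of the kinase TBK1 (TBK1i). All ligand treatments other than RANKL lasted 6 h by the labels. By the paper's methods, RGFP966 and the TBK1 inhibitor were added with the serum starvation, 12 h before KLA. No group received an inhibitor without KLA, so an effect of the inhibitor before KLA cannot be told apart from one during KLA. No group carried Cre without a floxed allele, so an effect of Cre alone cannot be told apart from that of the deletion. The labels do not say whether replicates were separate animals or cultures, and p-values measure the spread between these libraries.

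Counts assigned to genes ranged from 8323493 to 16783155 per library, and a count of 3, taken as the lower limit of detection, was 0.179 to 0.36 on the counts-per-million scale (CPM). Ncor1 was lower in all 12 NKO libraries than in any WT library, with 41.5 to 66.4 CPM against 130.7 to 216 CPM. Ppargc1b, the gene of PGC1β, was not lower in the 2 groups labelled Pgc1b_flox_Cre, with 4.1 to 9.0 CPM against 3.5 to 6.0 CPM without Cre, and the exons that were deleted were not separated in these counts. The paper examined PGC1β protein in BMDMs of these genotypes by immunoblot and describes the Cre cells as lacking it. These RNA counts do not measure the protein. The 2 NKO_KLA libraries and the 8 libraries of the Pgc1b table came from male mice by their sex-linked transcripts, and the other 34 from female mice. The column names carry dates: WT_KLA is dated 115 days before the vehicle libraries, NKO_KLA 1401 days before WT_KLA, and the RANKL libraries of both genotypes 536 days before vehicle. The CPM printed below were scaled by trimmed mean of M-values (TMM) within a table, unless said to be of the library total, and fold changes are log2 ± SE from edgeR. A gene was called when its adjusted p was below 0.05 and its fold change above 1.5. TMM scaling matters for KLA: without it, the median of all genes in the 4 KLA comparisons of control cells lay lower by 0.69 to 0.78 on the log2 scale, and 18.5% to 20.8% of called genes were higher in place of 44% to 50.2%.

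5 of the 10 genes lie on chromosome 9 (mm10), within a stretch of 427.1 kb that lists 10 Mmp genes among its 11 genes. In order these are Mmp13 (chr9:7272514-7283333), Mmp12 (chr9:7347374-7360461), Mmp10 (chr9:7502342-7510242), Mmp8 (chr9:7558429-7568486) and Mmp27 (chr9:7571396-7581885), all on the plus strand, and 2909 bases separate Mmp8 from Mmp27. The others are Mmp9 (chr2:164948219-164955850), Mmp14 (chr14:54431598-54442456), Mmp19 (chr10:128790955-128800827), Timp1 (chrX:20870166-20874737) and Timp2 (chr11:118301061-118355411, minus strand). Of the 3488 exonic bases annotated for Mmp19, 789 are also exonic in Tmem198b on the opposite strand. The study's methods describe counting of strand-specific reads, while no strand option appears in the command that made the counts, so whether Mmp19 and Tmem198b counts share reads is not settled by these sources. The counts are of exons, and Timp1 is counted on another transcript in the TBK1i table than in the other 3.

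The RefSeq promoter table (GRCm38.p6, which is mm10) held 8 of the 10 genes, all but Mmp9 and Mmp19. The sequences of the 5 genes on chromosome 9 are shown because they lie within the same stretch, with other Mmp genes between Mmp12 and Mmp10. These 5 genes moved together in some of the comparisons that follow and not in others. Each line gives the 120 bases before the transcript start, 5′ to 3′ on the plus strand, with matches to the AP-1 motif TGANTCA in capitals, searched on both strands.
Mmp13 (chr9:7272394-7272513): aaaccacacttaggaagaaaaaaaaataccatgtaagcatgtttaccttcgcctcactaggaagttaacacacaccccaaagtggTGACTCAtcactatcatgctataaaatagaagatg
Mmp12 (chr9:7347254-7347373): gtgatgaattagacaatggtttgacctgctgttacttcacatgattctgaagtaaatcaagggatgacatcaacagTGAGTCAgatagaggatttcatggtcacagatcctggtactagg
Mmp10 (chr9:7502222-7502341): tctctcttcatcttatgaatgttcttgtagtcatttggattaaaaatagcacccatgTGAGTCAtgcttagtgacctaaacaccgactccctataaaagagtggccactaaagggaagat
Mmp8 (chr9:7558309-7558428): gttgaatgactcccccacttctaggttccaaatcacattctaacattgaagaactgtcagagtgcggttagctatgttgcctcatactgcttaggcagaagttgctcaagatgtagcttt
Mmp27 (chr9:7571276-7571395): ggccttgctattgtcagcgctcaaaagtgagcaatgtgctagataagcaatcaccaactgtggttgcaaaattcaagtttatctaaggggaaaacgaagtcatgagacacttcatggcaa

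The AP-1 match began 35 bases before the start of Mmp13, 44 before that of Mmp12 and 63 before that of Mmp10, and the windows of Mmp8, Mmp27, Mmp14, Timp1 and Timp2 held none. Windows ran from 250 bases before to 50 after a start, and 7.81% of all 32851 promoters held this motif. The ETS motif AGGAAG was found in the windows of Mmp8, Mmp13, Mmp14 and Timp1 and in 35.4% of all promoters. Mmp13 also held a match to the interferon-stimulated response element, starting 146 bases before its start, and 3.44% of all promoters held it. None of the 8 genes held the NF-κB motif (5.56% of all promoters) or the C/EBP motif TTGCNNCAA (2.08%). A second listed start of Mmp12, which is not the start of the counted transcript, held no AP-1 match and 1 ETS match.

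Per transcript length, Mmp12, the macrophage elastase, was the most abundant of the 10 mRNAs at rest. In WT_Veh it stood at 1448 ± 165 TPM (length-scaled counts that sum to the same total in each library; SD, n = 2), followed by Timp2 at 678 ± 4.11 TPM, and these genes were the first and second of the 10 in the vehicle groups of all 4 tables. Mmp9 (72.7 ± 16.9 TPM), Mmp19 (54.3 ± 0.866 TPM) and Mmp13 (24.6 ± 1.65 TPM) came next in WT_Veh. The lowest was Mmp10, with 1 count in each WT_Veh library. Resting Mmp9 was not alike between tables, with means of 95.2, 29.7, 17.3 and 142 CPM of the library total in WT_Veh, Veh, Pgc1b_flox_Veh and DMSO_Veh, which were prepared on different dates. The tables were normalised separately and these 4 levels were not tested against each other. Together the 10 genes took 0.224% to 0.886% of the counts in 42 libraries and 2.48% and 2.57% in the 2 libraries of KLA with RGFP966.

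KLA raised Mmp13, a collagenase that cuts fibrillar collagens, and Mmp14, a membrane-anchored protease that activates other metalloproteinases, in the control cells of all 4 tables, together with the inhibitor Timp1. It lowered Timp2, Mmp19 and Mmp27 in all 4. In the NCoR table, Mmp13 stood at 23.8 and 21.6 CPM in WT_Veh and at 2521 and 2517 CPM in WT_KLA (log2 change 6.79 ± 0.15, adjusted p = 6.5e-15 by edgeR). Mmp14 stood at 17.5 and 26.5 CPM in WT_Veh and at 1498 and 1567 CPM in WT_KLA (6.12 ± 0.15, adjusted p = 4.5e-14). Groups were far apart in each case, and these 2 genes were the most responsive of the 10. 7 of the 10 genes were called in this comparison, 4 higher and 3 lower, where 57.8% of the 13407 genes tested were called, 25.4% higher and 32.3% lower. The fourth of those called higher was Mmp10, which had 1 and 1 counts in WT_Veh and 6 and 0 in WT_KLA, a ratio of 4.36 per library total with a 95% exact interval of 0.779 to 44.2 that covers counting error only, and its call was lost with libraries scaled by their totals or without either WT_Veh library.

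The size of the response differed between tables for some genes. Mmp13 changed by 7.85 ± 0.08, 6.00 ± 0.08 and 6.49 ± 0.05 in the RGFP966, Pgc1b and TBK1i tables, and Mmp14 by 7.45 ± 0.08, 8.57 ± 0.12 and 6.91 ± 0.06. Timp1 rose by 1.42 ± 0.21 in the NCoR table, from 6.19 and 3.49 CPM to 14.1 and 11.8 CPM. In the RGFP966 table it rose by 5.54 ± 0.24, from 0.328 and 0.463 CPM to 18.9 and 18.5 CPM. On the log2 scale, the KLA levels of Timp1 in these tables were thus closer to each other than the vehicle levels were, though each table was scaled separately. In the Pgc1b table Timp1 rose by 4.90 ± 0.28, and with DMSO_KLA by 2.91 ± 0.17. Differences between tables were not tested, because the tables differ in date and, for the Pgc1b table, in sex. Only in the NCoR table do the KLA and vehicle libraries of control cells carry different dates. KLA and date cannot be told apart there, for any of these genes.

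Timp2, the more abundant inhibitor, moved opposite to Timp1 with KLA. It went from 855 and 846 CPM in WT_Veh to 166 and 165 CPM in WT_KLA (-2.36 ± 0.06, adjusted p = 2.7e-41), and fell by 1.60 ± 0.06, 1.22 ± 0.07 and 1.70 ± 0.04 in the RGFP966, Pgc1b and TBK1i tables. Mmp19, which cuts basement membrane proteins, fell by 1.45 to 1.62 on the log2 scale over the 4 tables, and Mmp27 by 1.07 to 1.60. Mmp9, a gelatinase, was called higher in 3 tables (1.43 ± 0.08, 2.68 ± 0.13 and 1.66 ± 0.05) and stood at 66.7 and 92.8 CPM in WT_Veh and 54.7 and 57.5 CPM in WT_KLA, which was not called (-0.51 ± 0.26, adjusted p = 0.093). It was called lower there with libraries scaled by their totals (-1.24) or without WT_Veh replicate 1 (-0.73). Mmp12 was not called in any table on the TMM scale (-0.22 to -0.08), whereas it was called lower in all 4 when libraries were scaled by their totals (-0.95 to -0.77). The background of called genes was 60% in the RGFP966 table (27.9% higher, 32.2% lower), where 4 of 9 of these genes were called higher and 3 lower. It was 48.5% in the Pgc1b table (22.8% and 25.7%), with 4 of 10 higher and 3 lower. It was 58.9% with DMSO_KLA (29.6% and 29.3%), with 4 of 9 higher and 4 lower. The additional call with DMSO_KLA was Mmp8, a collagenase best known from neutrophils, at 8.93 and 10.1 CPM with DMSO_Veh and 4.31 and 4.17 CPM with DMSO_KLA (-1.16 ± 0.22). Sums of cell type markers, given as CPM of the library total, differed with KLA as well. The 6 macrophage markers (Adgre1, Csf1r, Cd68, Itgam, Mertk and Lyz2) summed to 19970.2 and 20040.1 CPM of the library total in WT_Veh and 12601 and 12723 CPM in WT_KLA, and were lower with KLA in the other 3 tables too. The 8 stromal markers (Col1a1, Col1a2, Col3a1, Pdgfra, Pdgfrb, Dcn, Lum and Thy1) went from 123 and 110 CPM to 16.5 and 11.9 CPM in the NCoR table, and from 1.06 and 0.727 CPM to 18.5 and 19.1 CPM in the RGFP966 table. Scaling by library totals lowered the median of all genes by 0.69 to 0.78 on the log2 scale in these 4 comparisons. The lower macrophage sums hold this shift, and the sums were not computed on the TMM scale. The part of the markers in the KLA differences was not tested.

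**Figure D1:**
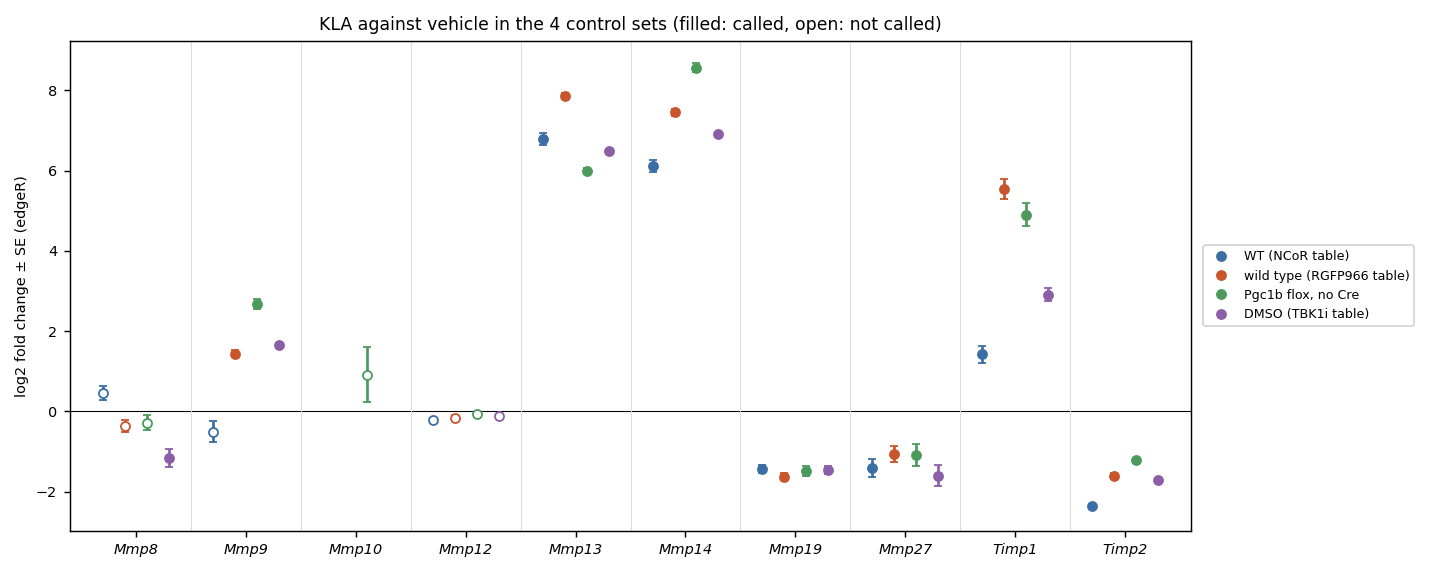
Log2 fold change of each gene for KLA against vehicle in the control cells of the 4 tables (y axis, ± SE from edgeR, 2 libraries per group), with filled points for called genes and open points for genes not called. Mmp13 and Mmp14 lie at 6.00 or higher in each table, Timp1 spans 1.42 to 5.54, and Mmp19, Mmp27 and Timp2 lie below 0 in each; Mmp10 is drawn only where both groups had more than 3 counts in a library.

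The other ligands gave different sets in WT cells. PolyIC called 7 of the 10 genes, 4 higher and 3 lower, where 47.2% of all genes were called (22.2% higher, 25% lower). Mmp13 reached 372 and 426 CPM (4.13 ± 0.14, adjusted p = 2.1e-12), Mmp14 reached 558 and 566 CPM (4.67 ± 0.15) and Timp1 13.2 and 11.7 CPM (1.36 ± 0.20). Mmp9 rose to 180.5 and 168 CPM (1.13 ± 0.22, adjusted p = 0.00039), a call that was lost when libraries were scaled by their totals (0.48). Mmp19, Mmp27 and Timp2 fell, by 1.50 ± 0.09, 1.15 ± 0.20 and 1.00 ± 0.06. IFNb called 1 gene of the 10 against 6.47% of all genes (4.09% higher, 2.37% lower). This was Mmp13, at 168 and 186 CPM (2.96 ± 0.14, adjusted p = 1.3e-09), so that its order in WT cells was Veh, IL4, RANKL, IFNb, PolyIC and KLA from low to high, with no overlap between neighbouring groups. IL4 called 2 of the 10 against 13.1% of all genes (6.63% higher, 6.46% lower). Mmp13 stood at 41.4 and 34 CPM (0.73 ± 0.16, adjusted p = 0.0033) and Mmp9 at 48.1 and 42.3 CPM (-0.82 ± 0.24, adjusted p = 0.017). Between 1 and 4 of the 10 genes were called with IL4 when 1 library was left out. Without WT_IL4 replicate 1 Mmp13 was not called (0.58), and without WT_Veh replicate 2 (-0.56) or WT_IL4 replicate 2 (-0.73) Mmp9 was not. Without WT_Veh replicate 1 both remained called and Mmp14 (-0.75) and Timp1 (0.78) were called as well.

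RANKL called 7 of the 10 genes, 6 higher and 1 lower, where 43.8% of all genes were called (24.1% higher, 19.8% lower). Mmp8 stood at 8.74 and 7.66 CPM in WT_Veh and at 166 and 174 CPM in WT_RANKL (4.37 ± 0.10, adjusted p = 1.1e-43). It was higher in the 4 RANKL libraries of both genotypes than in any of the other 40 libraries. These 4 libraries also stood apart in the markers of neutrophils: the 9 genes Ly6g, S100a8, S100a9, Camp, Ltf, Elane, Mpo, Retnlg and Cxcr2 summed to 1154 to 1580 CPM of the library total there and to 1.75 to 19.3 CPM in the other 40. All 9 were above the detection limit in both RANKL groups, whereas Ly6g, Elane and Retnlg were at or under it in each of the other 20 groups. The 2 genes whose levels over the 22 groups were most like those of Mmp8, of 10458 compared, were Adgrg3 (r = 0.942) and Cxcr2 (r = 0.921), the latter itself among those markers. Over groups of libraries that share dates, this is a description. Mean Mmp8 was 216 CPM of the library total in WT_RANKL, 297 CPM in NKO_RANKL and at most 21.7 CPM in the other 20 groups. These correlations thus hold the RANKL contrast already described, and they were not computed without the RANKL groups. In bulk RNA, more cells of a type and more RNA per cell cannot be told apart, and the part of the neutrophil markers in the Mmp8 difference was not tested. The RANKL libraries are described as osteoclasts in their table headers, yet the summed osteoclast markers (Acp5, Ctsk, Ocstamp, Dcstamp, Calcr and Atp6v0d2) were at most 232 CPM there and at 1027 to 1742 CPM in the vehicle groups of the NCoR table, with Calcr at or under the detection limit in all 22 groups. Macrophage markers (6 of 6) were above the limit in all groups.

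Mmp10, a stromelysin with broad matrix substrates, had 1 and 1 counts in WT_Veh and 19 and 22 in WT_RANKL, a ratio of 21.5 per library total (95% exact interval 5.57 to 183, counting error only). Timp1 rose with RANKL to 20.4 and 20.9 CPM (2.09 ± 0.16), Mmp14 to 148 and 146 CPM (2.74 ± 0.15) and Mmp13 to 45.8 and 54.4 CPM (1.14 ± 0.16). Mmp27, the neighbour of Mmp8, went from 8.80 and 7.94 to 17 and 14.7 CPM (0.92 ± 0.14). Timp2 fell to 209 and 185 CPM (-2.11 ± 0.06), the same direction as with KLA. The summed stromal markers were 290.0 and 258 CPM of the library total in WT_RANKL against 123 and 110 CPM in WT_Veh, and the macrophage markers 29725 and 29531 CPM against 19970.2 and 20040.1 CPM; their part in these differences was not tested. RANKL ran for 12 h against 6 h for vehicle, on another date. The headers name osteoclasts for RANKL and BMDMs for vehicle, so the culture may differ too. Ligand, duration, date and culture cannot be told apart in these differences.

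**Figure D2:**
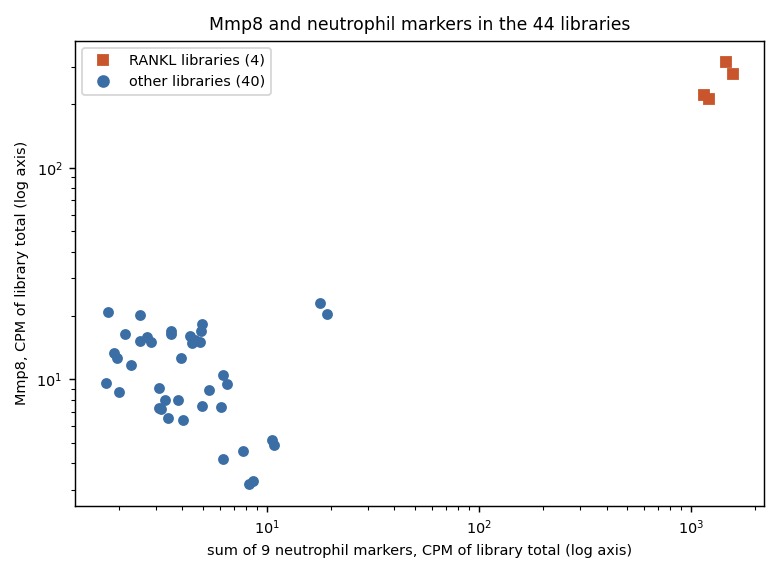
Mmp8 (y axis) against the sum of 9 neutrophil markers (x axis), both as CPM of the library total on log axes, in each of the 44 libraries. The 4 RANKL libraries (squares) lie apart, with marker sums of 1154 to 1580 CPM; in the other 40 (circles) the sums reach at most 19.3 CPM.

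In NKO cells, 4 proteases stood higher than in WT under vehicle: Mmp9, Mmp13, Mmp12 and Mmp8. Mmp14 stood lower. Mmp9 had 66.7 and 92.8 CPM in WT_Veh and 662 and 669 CPM in NKO_Veh (log2 difference 3.06 ± 0.21). Mmp12 had 1985 and 1687 CPM against 4819 and 4946 CPM (1.41 ± 0.06), and Mmp13 had 23.8 and 21.6 CPM against 87.1 and 96.9 CPM (2.02 ± 0.15). In each the 2 genotypes did not overlap. Mmp8 differed by 0.90 ± 0.13 and Mmp14 by -1.37 ± 0.22, with 7.82 and 9.13 CPM in NKO_Veh. 4 of the 10 genes were called higher and 1 lower, and 6.21% of all genes were called (2.4% higher, 3.8% lower). The genes were chosen with part of the NKO contrasts known, so nothing is read from this share. The same holds for the shares of NKO differences and NKO interaction terms under the ligands below. Mmp19 lay just under the fold limit at 0.58 ± 0.07 and was called in each of 4 other settings (DESeq2, its size factors, no filter, and only the compared groups). The macrophage markers summed to 12851 and 13056 CPM of the library total in NKO_Veh and 19970.2 and 20040.1 CPM in WT_Veh. This list holds Lyz2, the gene whose promoter drives Cre in NKO cells, so its sum does not measure macrophage content alone. The sum was also lower with Cre in the Pgc1b table, at 11029 and 11065 CPM in Pgc1b_flox_Cre_Veh against 15861 and 16021 CPM in Pgc1b_flox_Veh. The part of these markers in the NKO differences was not tested. Within each ligand other than KLA, the NKO and WT libraries carried the same date.

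The gelatinase and the elastase kept these differences with PolyIC, IFNb and IL4. Mmp9 differed by 3.35 ± 0.21, 3.23 ± 0.22 and 3.25 ± 0.22, and reached its highest level of any group with PolyIC, at 1795 and 1757 CPM in NKO_PolyIC against 180.5 and 168 CPM in WT_PolyIC. Mmp12 differed by 1.51 ± 0.06, 1.49 ± 0.06 and 1.48 ± 0.06. The NKO differences of both genes under these 3 ligands differed from the vehicle difference by at most 0.29 on the log2 scale, and none of these interaction terms was called. Mmp8, at 5.53 to 7.12 CPM in these WT groups and 11.9 to 16.3 CPM in the NKO groups, differed by 1.30 ± 0.18, 1.16 ± 0.14 and 1.16 ± 0.15. Mmp14 was lower in NKO in all 3, by -1.09 ± 0.12, -0.93 ± 0.22 and -0.87 ± 0.24, though its call with IFNb was lost when any of 3 of the 4 compared libraries was left out, and its call with IL4 when any of the 4 was. With PolyIC 5 of the 10 genes were called higher and 2 lower (all genes: 5.93% called, 3.01% higher and 2.92% lower). With IFNb 4 were called higher and 1 lower (3.8%, 1.86% and 1.94%). With IL4 4 were called higher and 2 lower (4.24%, 1.9% and 2.33%).

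Mmp13 behaved otherwise: its NKO difference was not alike over the ligands, and its PolyIC term was called. It was 2.50 ± 0.14 with IL4, 1.28 ± 0.11 with IFNb and 0.44 ± 0.11 with PolyIC, the last not called, with 372 and 426 CPM in WT_PolyIC and 478 and 607 CPM in NKO_PolyIC. The PolyIC term differed from the vehicle term by -1.58 ± 0.19. It was 2.71 ± 0.13 with RANKL, at 45.8 and 54.4 CPM against 323 and 331 CPM. Its difference was thus 2.02 or more under vehicle, IL4 and RANKL, where WT libraries had at most 54.4 CPM, and 1.28 or less under IFNb, PolyIC and KLA, where they had 168 CPM or more. Against the vehicle difference, the terms for IFNb and IL4 were not called, and the call for RANKL was lost in several fits with a library left out. The KLA difference cannot be told apart from date and sex. A dependence on the WT level was not tested.

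With RANKL 8 of the 10 genes were called higher in NKO and none lower, where 13.2% of all genes were called in either direction, 6.21% higher and 6.99% lower. Between 6 and 10 of the 10 genes were called when 1 library was left out. As under vehicle, nothing is read from this share, since part of the NKO contrasts was known when the genes were chosen. Mmp10 had 19 and 22 counts in WT_RANKL and 172 and 146 in NKO_RANKL (3.44 ± 0.29), which is 15.5 and 14.8 CPM, its highest level of the 22 groups. The next group, Pgc1b_flox_Cre_KLA, had 25 counts in each library. Mmp27 had 17 and 14.7 CPM against 40.8 and 41.5 CPM (1.37 ± 0.11), and Mmp19 had 50.8 and 49.7 CPM against 105 and 127 CPM (1.21 ± 0.07). Mmp9 had 95.6 and 90.5 CPM against 136 and 250.2 CPM (1.05 ± 0.21), and without NKO_RANKL replicate 2 the difference was 0.55 and not called. Mmp12 differed by 0.78 ± 0.06, Timp1 by 0.65 ± 0.13 and Timp2 by 0.60 ± 0.06, the last 2 no longer called with libraries scaled by their totals (0.55 and 0.50). Mmp8, at 230.4 and 271 CPM against 166 and 174 CPM, was under the fold limit (0.56 ± 0.07), while the neutrophil marker sum was 1580 and 1470 CPM of the library total in NKO_RANKL against 1223 and 1154 CPM in WT_RANKL. Stromal markers (7 of 8 above the limit, Lum at or under it) summed to 296 and 408 CPM in NKO_RANKL and 290.0 and 258 CPM in WT_RANKL. The part of either marker list in these differences was not tested.

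The inhibitors showed no common direction between genotypes. Timp1 was lower in NKO with PolyIC (13.2 and 11.7 CPM in WT, 8.76 and 5.81 CPM in NKO, -0.77 ± 0.20; not called without WT_PolyIC replicate 1 or NKO_PolyIC replicate 2) and IL4 (-0.82 ± 0.23; not called without NKO_IL4 replicate 2), higher with RANKL, and higher with KLA, at 14.1 and 11.8 CPM in WT_KLA and 53.5 and 70.2 CPM in NKO_KLA (2.25 ± 0.15). Timp2 differed by at most 0.45 under Veh, PolyIC, IFNb, IL4 and KLA, none of them called. Its order from high to low was IL4, Veh, IFNb, PolyIC, RANKL and KLA in both genotypes.

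**Figure D3:**
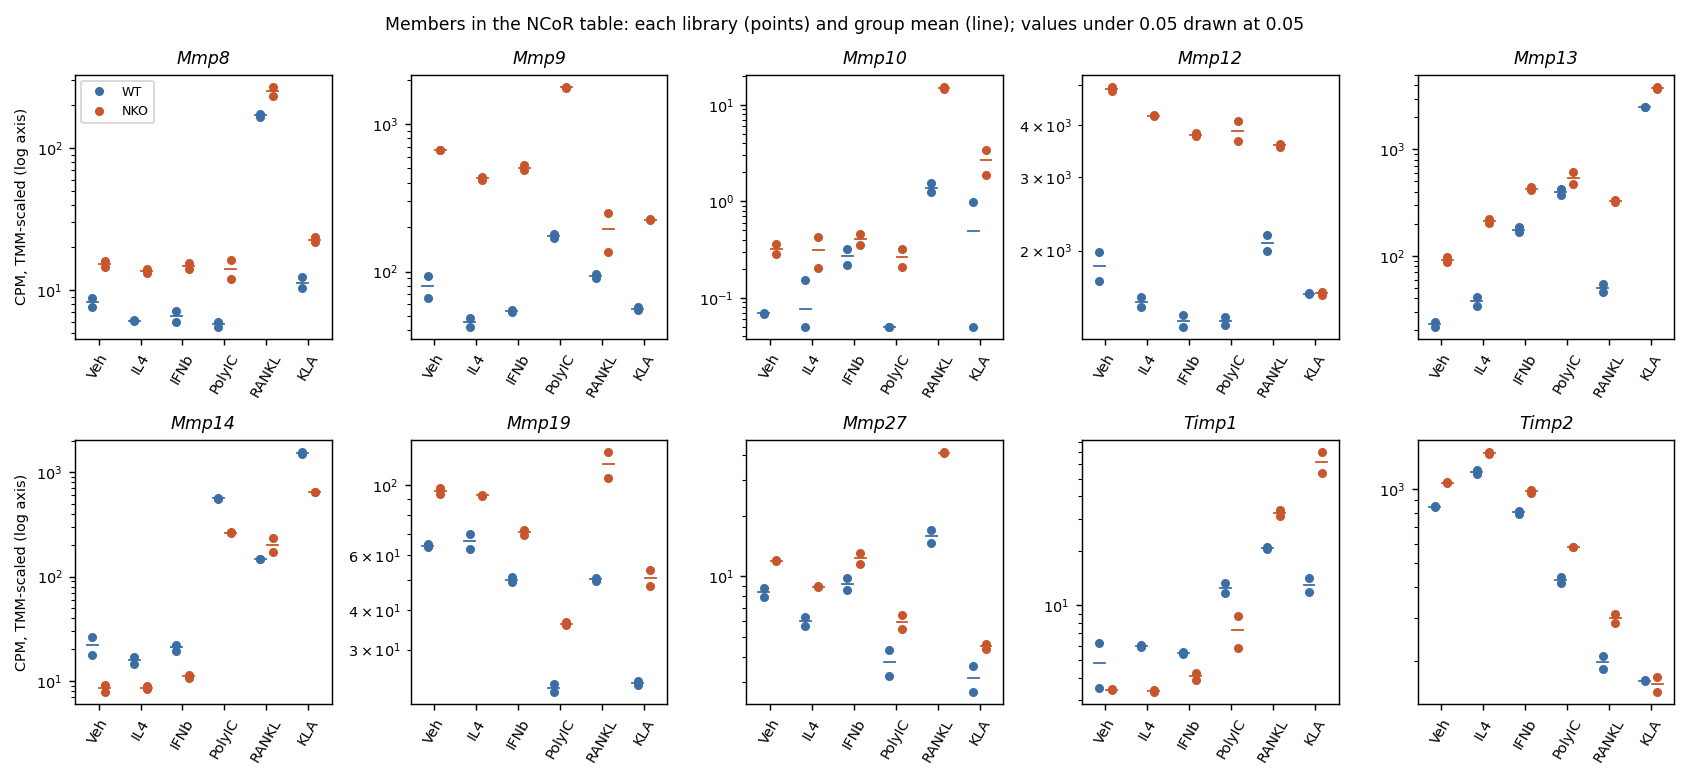
Level of each gene in the 24 libraries of the NCoR table (y axis, TMM-scaled CPM on a log axis; points are libraries, short lines group means of 2), by ligand and genotype. Mmp9, Mmp12 and Mmp8 lie higher in NKO under Veh, IL4, IFNb and PolyIC, Mmp10 is highest in NKO_RANKL at 15.5 and 14.8 CPM, and Mmp12 of the 2 genotypes overlaps with KLA.

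With KLA, NKO and WT cannot be told apart from date and sex, since NKO_KLA libraries are dated 1401 days earlier and came from male mice. 40% of all genes were called between these groups (21% higher, 19% lower), and of the 10 genes 6 were called higher and 1 lower. Beside Timp1, an X-linked gene, Mmp9 differed by 2.00 ± 0.24 (54.7 and 57.5 against 227 and 223 CPM), Mmp19 by 1.10 ± 0.11, Mmp8 by 1.00 ± 0.15, Mmp13 by 0.59 ± 0.11 and Mmp14 by -1.24 ± 0.11. Mmp10 had 6 and 0 counts in WT_KLA and 22 and 36 in NKO_KLA, a ratio of 5.09 per library total (95% exact interval 2.20 to 14.4, counting error only). The call of Mmp13 was lost with DESeq2 (0.57), with library totals (0.54), in a fit of the compared groups only (0.56) and without NKO_KLA replicate 2 (0.56). Mmp12 was the exception among the proteases called under vehicle, at 1579.6 and 1571 CPM in WT_KLA and 1569 and 1593 CPM in NKO_KLA. NKO_KLA was also compared with KLA, Pgc1b_flox_KLA and DMSO_KLA in a joint fit of 10864 genes, in which 37.3% to 46.9% were called over the 3 controls and Timp1 could not be included. Against all 4 controls Mmp8 was called higher (0.95 to 2.34), Mmp19 higher (1.05 to 1.29) and Mmp14 lower (-1.34 to -0.63). Mmp9 was called higher against 3 and lower against DMSO_KLA (-0.67). Mmp12 was called lower against the 3 other controls (-1.29, -1.71 and -0.90), and Mmp13 was -0.33 against the KLA group of the RGFP966 table and 0.90 against Pgc1b_flox_KLA. Mmp10 was not called against Pgc1b_flox_KLA (0.65) or DMSO_KLA (1.29). The direction of Mmp9, Mmp12 and Mmp13 at KLA, and the call of Mmp10, thus rested on which control libraries were used.

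Whether the NKO difference changed with the ligand was also fitted directly, as the difference between the effect under a ligand and that under vehicle. With KLA 1 of the 10 genes was called higher and 3 lower (all genes: 36.9% called, 19.9% higher and 17% lower), with RANKL 5 higher and 2 lower (14.2%, 7.26% and 6.97%) and with PolyIC 0 higher and 1 lower (3.24%, 2.13% and 1.1%). With IFNb (0.604%, 0.552% and 0.0522%) and IL4 (0.604%, 0.351% and 0.254%) none of the 10 was called by edgeR; the nearest were Mmp13 with IFNb at -0.74 ± 0.19 and with IL4 at 0.48 ± 0.20. With RANKL the terms were 1.82 ± 0.25 for Mmp14, which was lower in NKO under vehicle and not under RANKL, and -2.01 ± 0.29 for Mmp9.

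**Figure D4:**
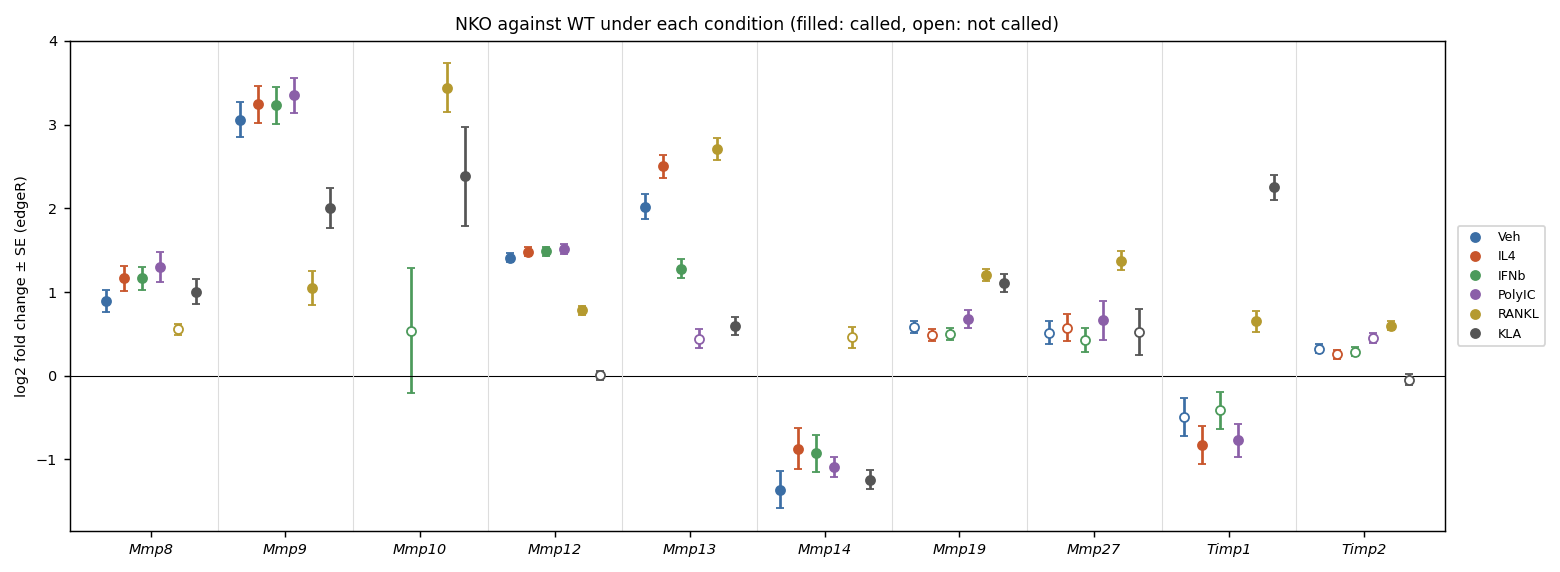
Log2 difference of NKO from WT for each gene under 6 conditions (y axis, ± SE from edgeR, 2 libraries per group; filled, called; open, not called). Mmp9 lies near 3 under Veh, IL4, IFNb and PolyIC and at 1.05 with RANKL, Mmp14 lies below 0 in all but RANKL, and Timp1 lies at 2.25 with KLA and below 0 under 4 conditions; Mmp10 is drawn only where both groups had more than 3 counts in a library.

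RGFP966 during KLA raised Mmp13 to 13929 ± 465 TPM (SD, n = 2), above its level in each of the other 21 groups. Mmp13 stood at 3827 and 3794 CPM with KLA and at 18892 and 18141 CPM with RGFP966 and KLA (2.28 ± 0.05, adjusted p = 8.7e-52), against 16.4 and 16.6 CPM with vehicle. Mmp12 went from 3012 and 3156 to 10265 and 9747 CPM (1.70 ± 0.05, adjusted p = 3.3e-43), against 3401 and 3466 CPM with vehicle. Mmp9 went from 55.7 and 57.7 to 274 and 244 CPM (2.19 ± 0.07) and Mmp8 from 7.74 and 8.90 to 27.2 and 23.9 CPM (1.61 ± 0.14). All 4 thus rose beyond the spread of their replicates, and Mmp19 rose as well (0.98 ± 0.10). Mmp14 fell, from 1304 and 1322 to 706 and 694 CPM (-0.91 ± 0.05), and Timp2 fell further, from 183 and 162 to 99.4 and 105 CPM (-0.76 ± 0.06). Timp1 was not called (-0.22 ± 0.14). 7 of 9 genes tested were called, 5 higher and 2 lower, where 25.4% of all genes were (15.8% higher, 9.54% lower), and the count was 7 or 8 when any library was left out, RGFP966_KLA replicate 2, which is dated 14 days later, included. The neutrophil marker sum was 17.8 and 19.3 CPM with RGFP966 and 4.03 and 6.11 CPM with KLA alone, with Ly6g, Ltf, Elane, Mpo, Retnlg and Cxcr2 at or under the limit. Set beside these, NKO_KLA against WT_KLA had given 0.59 for Mmp13, 0.00 for Mmp12, 2.00 for Mmp9, 1.00 for Mmp8, 1.10 for Mmp19, -1.24 for Mmp14 and -0.05 for Timp2. In those values genotype cannot be told apart from date and sex. Against the KLA group of the RGFP966 table, the joint fit gave -0.33, -1.29, 1.67, 1.12, 1.20, -1.34 and -0.43 in the same order.

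TBK1i during KLA separated the gelatinase from the collagenase. Mmp13 went from 2371 and 2619.9 CPM in DMSO_KLA to 588 and 639 CPM in TBK1i_KLA (-2.02 ± 0.04) and Mmp14 from 1367 and 1425 to 637 and 677 CPM (-1.09 ± 0.04, adjusted p = 5.7e-180). Mmp9 went from 338 and 344 to 657 and 678 CPM (0.97 ± 0.04, adjusted p = 4.9e-119). Mmp13 and Mmp14 remained above DMSO_Veh (27.9 and 27.5 CPM, and 10.1 and 13.1 CPM). 1 of 9 genes tested was called higher and 2 lower, where 33.3% of all genes were called (15% and 18.3%). The macrophage markers summed to 19408 and 18952 CPM of the library total in TBK1i_KLA and 10672 and 10735 CPM in DMSO_KLA, and their part was not tested. Mmp12 was 0.02 ± 0.03 and Timp1 -0.17 ± 0.13. With libraries scaled by their totals, which moved the median of all genes by 0.37 and the share of calls that were higher from 45.0% to 73.6%, Timp2 (0.91), Mmp8 (0.63) and Mmp19 (0.68) were called higher too.

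Within the Pgc1b_flox_Cre libraries KLA called 5 of the 10 genes higher and 1 lower, against 39.8% of all genes (19.2% and 20.6%). With library totals Mmp8 (-0.87), Timp2 (-0.96) and Mmp27 (-0.60) were called lower too, and without Pgc1b_flox_Cre_Veh replicate 2 Mmp10 was not called (1.43). There KLA brought Mmp14 to 454 and 435 CPM, against 994 and 932 CPM in Pgc1b_flox_KLA (-1.11 ± 0.07, adjusted p = 5.9e-16). Under vehicle Mmp14 was higher with Cre, at 5.77 and 3.94 against 2.11 and 2.88 CPM (0.95 ± 0.20, adjusted p = 0.013). That was the 1 call of the 10 under vehicle, against 0.303% of all genes (0.164% higher, 0.139% lower), and it was lost when only these 4 libraries were fitted or without Pgc1b_flox_Veh replicate 1 (0.76) or Pgc1b_flox_Cre_Veh replicate 1 (0.64). The KLA response of Mmp14 was smaller with Cre by 2.07 ± 0.21 on the log2 scale (adjusted p = 6.6e-10, interaction term). Mmp13 reached 1287 and 1451 CPM with Cre and KLA against 1885 and 2051 CPM without Cre, a difference under the fold limit (-0.52 ± 0.06), and its interaction term was -0.78 ± 0.10 (adjusted p = 1.5e-07), or -0.56 and not called with libraries scaled by their totals. Timp2 fell less with Cre, to 322 and 309.9 CPM against 166 and 159 CPM (0.96 ± 0.07; interaction 0.73 ± 0.09). Mmp12 was higher with Cre and KLA, at 7523 and 7811 against 4631 and 5326 CPM (0.62 ± 0.06), and was not called without Pgc1b_flox_KLA replicate 1 (0.55). Mmp27 was higher at 5.97 and 7.13 against 3.33 and 4.15 CPM (0.82 ± 0.29), and was not called without Pgc1b_flox_KLA replicate 1 (0.68) or Pgc1b_flox_Cre_KLA replicate 2 (0.68). Mmp9 did not differ beyond the spread of replicates at KLA (-0.06 ± 0.11), with 89.7 and 79.8 against 90.0 and 86.8 CPM. 4 of the 10 genes were called at KLA, 3 higher and 1 lower, against 26.1% of all genes (13.2% and 12.9%). 4 had a called interaction, 2 higher and 2 lower, against 22.8% of all genes (11.6% and 11.2%). Library totals moved the median of all genes by 0.20 at KLA and the share of higher calls from 50.6% to 68.2%. Mmp14 was the gene called lower in each of the 3 comparisons made during KLA, with RGFP966, with TBK1i and with Pgc1b_flox_Cre.

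**Figure D5:**
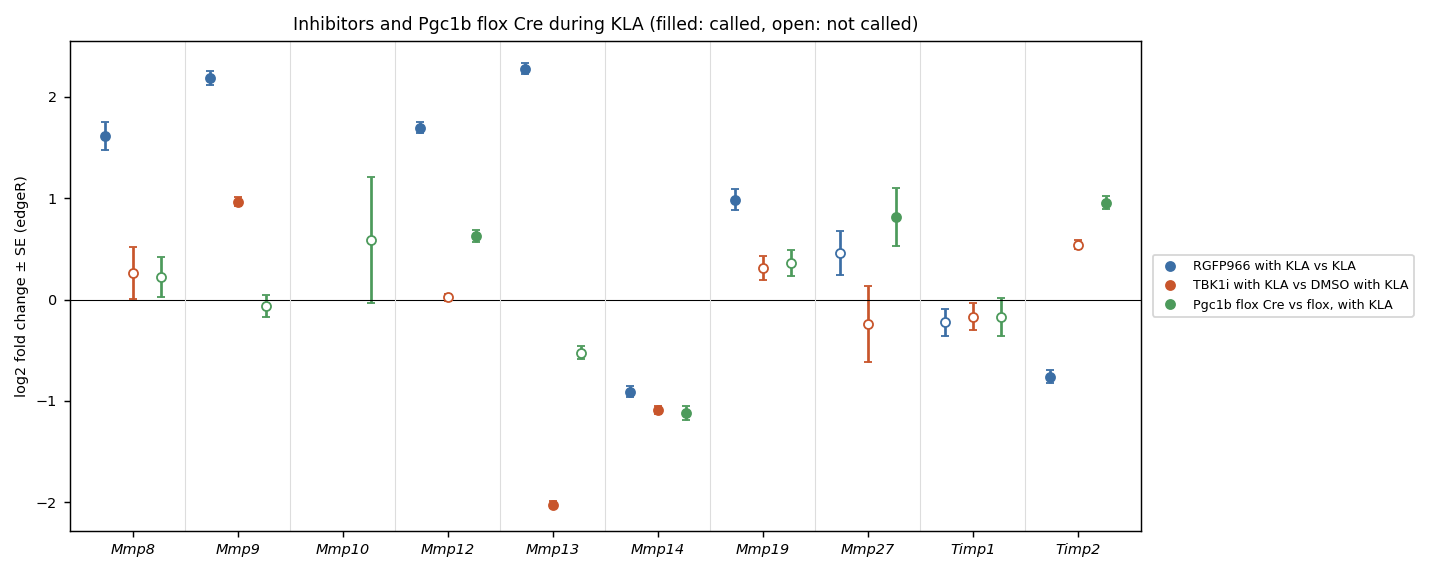
Log2 difference of each gene during KLA (y axis, ± SE from edgeR, 2 libraries per group; filled, called; open, not called) for RGFP966, for TBK1i and for Pgc1b_flox_Cre, each against the KLA group of its own table. Mmp14 lies between -1.11 and -0.91 in all 3, whereas Mmp13 lies at 2.28 with RGFP966, -2.02 with TBK1i and -0.52 with Pgc1b_flox_Cre.

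Among the 17 other Mmp and Timp genes, 4 to 9 were tested per table. Mmp25, a membrane-anchored protease, had 3 or 4 counts in the DMSO_Veh libraries and 410 and 385 in DMSO_KLA, and was called higher with KLA in the control cells of all 4 tables, as was Mmp28. During KLA Mmp25 was called lower with RGFP966 (-2.43 ± 0.14), with TBK1i (-4.67 ± 0.20) and with Pgc1b_flox_Cre (-2.54 ± 0.27), as Mmp14 was, and in NKO it was lower with PolyIC (-1.24 ± 0.10) and higher with KLA (0.95 ± 0.10). No gene of this list was called between NKO_Veh and WT_Veh. Of 23 genes that act with metalloproteinases at the cell surface, such as plasminogen activators and sheddases, 22 were tested. With KLA 11 were called higher and 6 lower in WT, against 25.4% and 32.3% of all genes, led by the protease inhibitor Serpinb2 (8.95 ± 0.23) and by Lcn2 (7.16 ± 0.16), which binds Mmp9, and with the integrin Itgb3 (-3.55 ± 0.31) and the urokinase Plau (-2.01 ± 0.16) at the other end. In NKO_Veh Itgb3 was called higher (1.39 ± 0.11). In NKO_RANKL 6 were called, all higher, led by Plau (1.59 ± 0.10), against 6.21% of all genes called higher and 6.99% lower.

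Over the 22 groups, the genes most like each of the others were found by the correlation of mean log2 CPM, as a description over groups that share dates and depth. Mmp14 was most like Skil (r = 0.974) and the formyl peptide receptor Fpr2 (r = 0.973). Timp2 was most like Tex264 (r = 0.966) and the lysosomal sulfatase Arsa (r = 0.966), and Mmp13 most like AA467197 (r = 0.904) and the carbonic anhydrase Car2 (r = 0.897). Mmp9 had weaker partners, Chpf (r = 0.806) and Acp5 (r = 0.720), the latter one of the osteoclast markers, and so did Mmp12, with the chemokine Ccl6 (r = 0.839) and the proton pump subunit Atp6v1h (r = 0.775). Mmp27 was most like Ermp1 (r = 0.930) and Rpap3 (r = 0.915). Mmp19 was most like Tmem198b (r = 0.985), the gene whose exons overlap its own on the opposite strand, and Cdk20 (r = 0.966). Between the 10 themselves, Mmp13 and Mmp14 had r = 0.798 and Mmp9 had r between -0.0235 and 0.257 with each of the other 8 compared.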

How the data were processed

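The authors aligned reads to mm10 with STAR and, per the file headers, counted reads in exons of RefSeq transcripts with HOMER without normalization, so the 4 deposited tables hold raw counts with 1 transcript per gene; versions are not given in the sources used here. The submitters' processing notes also name DESeq2. Each table was fitted with edgeR 4.0.16 in R 4.3.3 (filterByExpr, minimum count 10; TMM scaling; robust quasi-likelihood F-test over all groups of a table, 2-sided, Benjamini-Hochberg over all genes tested). Tested were 13407, 12196, 12205 and 12332 genes in the NCoR, RGFP966, Pgc1b and TBK1i tables, with all 10 genes in the NCoR and Pgc1b tables and all but Mmp10 in the other 2. Genes were called at adjusted p under 0.05 with a change of more than 1.5-fold. SEs follow from the F statistic. An exact permutation test of 2 libraries against 2 cannot go below p = 0.333. Intervals of counts are exact (Clopper-Pearson) and cover counting error only. CPM of the library total had been planned for the levels; TMM-scaled CPM were printed instead after the KLA libraries were seen to shift, and fits on library totals were added then. The genes, lists and tests were chosen with earlier results of these data known. All 10 genes were to be named in each comparison, and of the other lists genes among the 2 highest and 2 lowest called; 1 listed gene is not reported here. Motifs were searched in RefSeq promoters and overlaps in GENCODE M21. The pipeline was tested on simulated data. Alternatives were DESeq2 1.42.0 and its size factors, no filter, only the compared groups, a replicate block, each library left out and other KLA controls. Figures were drawn with matplotlib 3.10.9.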

Additional observations from a re-analysis of the deposited data

Results flagged for a closer look

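Effects that differed between conditions were called for 16 of the terms tested, 12 of 50 for NKO and 4 of 10 for Pgc1b_flox_Cre. Each term is the difference, on the log2 scale, between the effect under a ligand and the effect under vehicle by edgeR's interaction term. Of all genes, 36.9% were called for NKO with KLA, 14.2% with RANKL, 3.24% with PolyIC and 0.604% each with IFNb and IL4. For Pgc1b_flox_Cre with KLA, 22.8% of all genes were called. The pooled counts cover comparisons with unlike shares, and nothing is read from them. For NKO with KLA, Timp1 had 2.74, Mmp9 -1.06, Mmp12 -1.41 and Mmp13 -1.43, and here date and sex cannot be told apart from the ligand. For NKO with RANKL, Mmp14 had 1.82, Timp1 1.14, Mmp27 0.86, Mmp13 0.69, Mmp19 0.63, Mmp12 -0.63 and Mmp9 -2.01. Here duration, date and culture cannot be told apart from the ligand. Without WT_Veh replicate 1 the Timp1 term was 0.67 and not called, and the Mmp13 term was not called when any of 5 of the 8 libraries was left out. The Mmp12 term was not called without WT_Veh replicate 2 (-0.52) or WT_RANKL replicate 2 (-0.57). The Mmp19 term was not called with library totals (0.57) or without NKO_RANKL replicate 2 (0.48). For NKO with KLA, the Mmp9 term was not called without WT_Veh replicate 1 (-0.84) or WT_KLA replicate 2 (-1.02). For NKO with PolyIC, Mmp13 had -1.58. For Pgc1b_flox_Cre with KLA, Mmp14 had -2.07, Mmp13 -0.78, Timp2 0.73 and Mmp27 0.96, the last not called with DESeq2, with no filter, with the replicate block or when any of 6 of the 8 libraries was left out. Groups of 2 libraries cannot show which library stands apart. The pair of WT_Veh libraries, the baseline of the WT ligand comparisons and of the NKO terms, differed most, with a chi-square per degree of freedom of 6.16 against 1.55 to 4.53 in the other 21 groups.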

How the results depend on the processing

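Of the 246 values of a gene in a comparison, 241 kept direction and side of the threshold with DESeq2, 244 with its size factors, 243 with no filter, 244 with the replicate block, 230 of 235 in fits of the compared groups only, and 222 with libraries scaled by their totals, where no called gene changed direction. The number of the 10 genes called moved by more than 1.5 times in few comparisons. With library totals WT_IFNb had 2 and TBK1i_KLA had 6, since the scaling moves all genes. For the NKO effect under IFNb the count was 1 with no filter, with the replicate block, in the compared groups only and with DESeq2, each time Mmp13. For Pgc1b_flox_Cre_Veh it was 0 in the compared groups only, and 0 to 1 with 1 library left out; for WT_IL4 leaving out 1 library gave 1 to 4. Mmp10 in WT_KLA ranged from -2.97 to 3.66 when 1 library was left out, and its 6 and 0 counts cannot carry a direction. Against other KLA controls, the NKO_KLA difference of Mmp12 turned to -1.29 (KLA), -1.71 (Pgc1b_flox_KLA) and -0.90 (DMSO_KLA), that of Mmp9 to -0.67 (DMSO_KLA) and that of Mmp13 to -0.33 (KLA), and Mmp10 was not called against Pgc1b_flox_KLA (0.65) or DMSO_KLA (1.29); the cause was not tested. Replicate numbers did not pair the libraries (correlations of deviations from -0.048 to 0.086), and the block changed 2 calls, Mmp13 in the NKO effect under IFNb (-0.74, called) and Mmp27 in the Pgc1b_flox_Cre effect (0.96, not called). Library totals in place of TMM changed the share of called genes that were higher from 47% to 20.3% for WT_PolyIC, 63.3% to 44% for WT_IFNb, 47.1% to 33.2% for NKO_RANKL, 49% to 34.8% for NKO_IFNb, 44.9% to 31.2% for NKO_IL4, 48.3% to 21.6% for KLA in Pgc1b_flox_Cre, 50.8% to 72.2% for its interaction, 65.9% to 82.7% for the NKO effect under PolyIC and 58% to 47.1% under IL4. At 8323493 to 16783155 counts, levels of Mmp10 in most groups lay near the detection limit.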
